A study of Mus musculus with 18 samples.

Results

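Fmo1, Fmo2, Fmo4 and Fmo5 encode flavin-containing monooxygenases, and their RNA was read in mouse liver under a low-fat or a high-fat diet, with and without methotrexate. The 4 genes were chosen by name and taken with every array probe that maps to them, which gave 7 probes of the 39429 probes and 4 of the 21153 named genes on the array. They were chosen with their values in these livers known, so their levels and differences are given as a description and carry no test.

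Flavin monooxygenases sit in the membrane of the endoplasmic reticulum, hold FAD, and use NADPH and molecular oxygen to add an oxygen atom to soft nitrogen or sulfur centres of drugs, foreign compounds and dietary amines. Unlike cytochromes P450, they bind NADPH directly and need no separate reductase to reach their flavin. Fmo1 is a broad N- and S-oxygenase of liver and kidney, Fmo2 is best known as the lung form, Fmo4 is the least characterised of the set, and Fmo5 is abundant in liver, where it can also insert oxygen beside a carbonyl group.

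The livers came from C57BL/6 males with no stated genetic change, placed at 6 weeks of age on feed with 10% (LFD) or 60% (HFD) of its energy as fat. The treated groups, LFD MTX50 and HFD MTX50, received methotrexate, an antifolate that blocks dihydrofolate reductase, at 50 mg/kg into the peritoneum for 5 rounds that began after 10 weeks of feeding, and livers were taken 1 week after the last dose. There were 4 livers each of LFD and HFD and 5 each of LFD MTX50 and HFD MTX50, with 1 one-colour Agilent array per liver. The study's methods describe the livers as those of individual mice, and a mouse is named below by its group and its replicate number in the labels.

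A level is the log2 intensity of a probe minus the 75th percentile of its array, so 0 is the brightness of that percentile and a step of 1 is 2-fold. Levels of different probes were not set against each other, because probes differ in how well they bind. The 18 arrays lay on 6 slides. All LFD arrays were on a slide of their own, and the LFD MTX50 arrays were on 2 others, so for each comparison that involves a low-fat group slide and group cannot be told apart. A shared slide held 2 HFD and 2 HFD MTX50 arrays, and the difference within it is given beside HFD MTX50 vs HFD. Hepatocyte markers were bright in every liver, with a mean level over 5 genes of 6.18 to 7.14. Fewer cells of a type and less RNA per cell cannot be told apart in such bulk samples. Arrays of a group correlated with each other at 0.979 to 0.993 over the probes kept.

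Fmo4, Fmo1, Fmo2 and Fmo6 follow each other in this order among the protein-coding genes of chromosome 1 in RefSeq's GRCm38.p6 assembly, Fmo9 lies further along the same chromosome, and Fmo5 is on chromosome 3. A promoter table from RefSeq (GRCm38.p6) held 3 of the 4 members. The 250 bases before the start are shown for Fmo2, the member with the widest range among the livers, at both of its annotated starts, and for Fmo5, none of whose 3 probes separated the treated from the untreated groups. They lie at chr1:162898759-162899008 and chr1:162898494-162898743 on the minus strand and at chr3:97628769-97629018 on the plus strand. Capitals mark matches, on either strand, to the letters of 5 motifs that were searched.

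Fmo2 outer start: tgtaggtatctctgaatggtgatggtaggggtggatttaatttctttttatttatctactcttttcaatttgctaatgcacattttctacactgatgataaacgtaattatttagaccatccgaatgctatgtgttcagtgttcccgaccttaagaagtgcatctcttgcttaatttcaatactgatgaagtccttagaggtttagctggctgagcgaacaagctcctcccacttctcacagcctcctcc
Fmo2 inner start: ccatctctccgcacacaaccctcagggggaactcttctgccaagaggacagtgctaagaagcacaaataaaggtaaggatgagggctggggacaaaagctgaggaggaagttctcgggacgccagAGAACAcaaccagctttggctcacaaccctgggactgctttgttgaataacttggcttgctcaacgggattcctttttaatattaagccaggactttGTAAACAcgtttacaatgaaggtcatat
Fmo5: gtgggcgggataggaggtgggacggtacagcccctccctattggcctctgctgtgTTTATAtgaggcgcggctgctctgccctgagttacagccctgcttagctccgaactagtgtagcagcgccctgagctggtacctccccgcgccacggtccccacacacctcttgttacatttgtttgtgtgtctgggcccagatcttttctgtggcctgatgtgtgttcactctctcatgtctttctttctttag

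The inner Fmo2 window held the letters of a glucocorticoid receptor half-site (TGTTCT, read as AGAACA at position -125 from the start) and of a FOXA site (TGTTTAC, read as GTAAACA at position -28). Of 32851 promoter windows of this length, 16.1% held the former and 3.17% the latter. The Fmo5 window held the letters of a TATA box (TATAAA) on the opposite strand at position -195, as did 12.4% of all windows in either direction. The outer Fmo2 window and the Fmo4 window held none of the 5. Neither the STAT5 letters (TTCNNNGAA, in 7.02% of windows) nor the C/EBP core (TTGCGCAA, in 0.164%) occurred in the windows searched for the members. These are matches of letters in short windows and say nothing of binding. The Fmo2 windows were 39.6% and 47.6% G and C, and that of Fmo5 was 56.0%.

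All 7 probes lay well above background on all 18 arrays. Fmo2 stood far apart from the other members in how widely it ranged. Its level in the LFD livers was -3.23, -2.84, -3.06 and -3.03 for mice 1 to 4, a mean of -3.04 ± 0.16 (SD, n = 4). In the LFD MTX50 livers it was 1.24, -0.37, 0.17, -1.65 and 1.83 for mice 1 to 5, a mean of 0.24 ± 1.36 (SD, n = 5). Every LFD MTX50 liver was above every LFD liver, and the treated livers were spread over more than the gap between them and the untreated ones.

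The HFD livers held Fmo2 at -2.89, -2.74, -2.56 and -2.49, a mean of -2.67 ± 0.18 (SD, n = 4). The HFD MTX50 livers held it at -2.26, -0.25, -2.47, -2.35 and -3.01, a mean of -2.07 ± 1.06 (SD, n = 5). Mouse 2 of HFD MTX50 was thus the high one of its group. Mice 1, 3 and 4 of that group, from -2.47 to -2.26, were also above the highest HFD liver at -2.49. Mouse 5, at -3.01, was below every HFD liver. The order of the group means was LFD, HFD, HFD MTX50 and LFD MTX50, and LFD, HFD and HFD MTX50 overlapped within their spread.

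Fmo2 was 3.28 ± 0.57 (SE) higher on the log2 scale in LFD MTX50 than in LFD, a 9.73-fold difference. Leaving out each array in turn gave 2.89 (without LFD MTX50 mouse 5) to 3.76 (without LFD MTX50 mouse 4). The other alternatives that were run gave 3.13 to 3.50. In the high-fat livers the same treatment went with 0.60 ± 0.57 (SE), and with 1.27 within the shared slide, which held mouse 2. Without that mouse the difference was 0.15. The treatment effect on the high-fat diet minus that on the low-fat diet was -2.68 ± 0.81 (SE) on the log2 scale, a value that shares its arrays with both. HFD exceeded LFD by 0.37 ± 0.60 (SE) in Fmo2, and HFD MTX50 was below LFD MTX50 by a log2 difference of -2.31 ± 0.54 (SE), with mouse 2 of HFD MTX50 inside the LFD MTX50 range. That last difference was -1.17 under normexp, a model of the background under each spot that replaces the background handling of the scanner software.

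**Figure D1:**
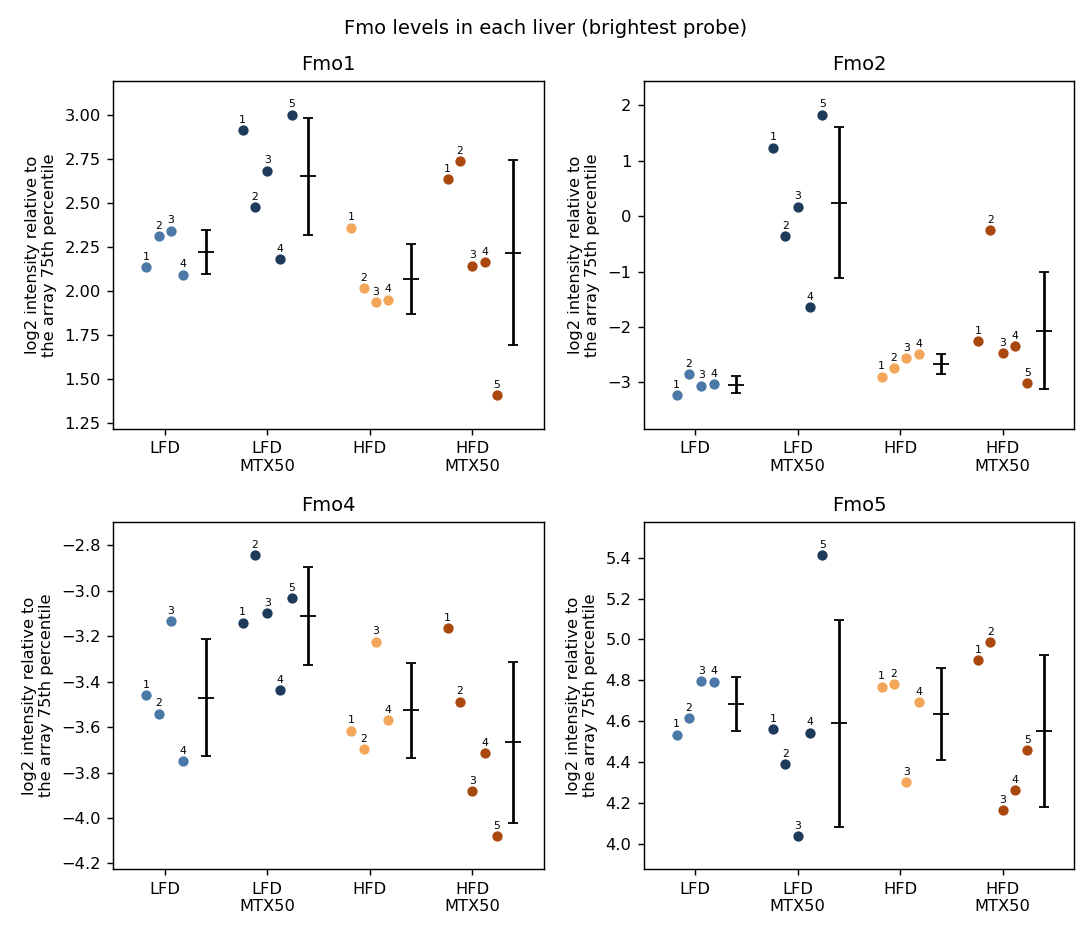
Level of each member on its brightest probe, as log2 intensity relative to the 75th percentile of the array (vertical axis, a separate scale per gene), by group. Numbered points are mice, and the bar to the right of each group is the mean ± SD. Fmo2 in LFD MTX50 runs from -1.65 to 1.83, above all LFD livers, and HFD MTX50 mouse 2 at -0.25 stands above the rest of its group.

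Fmo1, the broad liver and kidney oxygenase, was read on 2 probes. On the brighter one its level was 2.14, 2.31, 2.34 and 2.09 in LFD, a mean of 2.22 ± 0.12 (SD, n = 4), and 2.91, 2.48, 2.68, 2.18 and 3.00 in LFD MTX50, a mean of 2.65 ± 0.33 (SD, n = 5). Mouse 4 of LFD MTX50 fell within the LFD range and the other 4 treated mice were above it. The HFD livers were at 2.36, 2.02, 1.94 and 1.95, a mean of 2.07 ± 0.20 (SD, n = 4). The HFD MTX50 livers were at 2.63, 2.73, 2.14, 2.16 and 1.41, a mean of 2.22 ± 0.52 (SD, n = 5). Mice 1 and 2 of HFD MTX50 were above all HFD livers, mouse 5 was below all of them, and mice 3 and 4 were among them.

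The log2 differences on this probe were 0.43 ± 0.22 (SE) for LFD MTX50 vs LFD, 0.15 ± 0.22 for HFD MTX50 vs HFD, -0.15 ± 0.23 for HFD vs LFD and -0.43 ± 0.21 for HFD MTX50 vs LFD MTX50. Within the shared slide, HFD MTX50 exceeded HFD by 0.74. Without HFD MTX50 mouse 2 the difference over all arrays was 0.02, and without mouse 5 it was 0.35.

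The dimmer Fmo1 probe gave a sharper separation on the low-fat diet. It lay between -2.07 and -1.98 in the 4 LFD livers and at -1.01, -1.24, -0.95, -1.57 and -1.12 in those of LFD MTX50, with no overlap and a log2 difference of 0.84 ± 0.15 (SE). It was at -1.86, -1.69, -1.41 and -1.56 in HFD, also above every LFD liver, by 0.39 ± 0.15 (SE), where the brighter probe had -0.15. The HFD MTX50 livers were at -1.52, -1.28, -1.91, -1.93 and -1.81 and overlapped HFD, with a difference of -0.06 ± 0.15 (SE). HFD MTX50 minus LFD MTX50 was -0.51 ± 0.14 (SE) on this probe, and the treatment effect with high-fat feeding minus that with low-fat feeding was -0.90 ± 0.21, where the brighter probe had -0.43 and -0.28. The probes of Fmo1 thus disagreed in sign on the diet and both had higher means in LFD MTX50 than in LFD. Over the 18 arrays they correlated at 0.614.

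Fmo4 was read on 1 probe. Its level was -3.46, -3.54, -3.13 and -3.75 in LFD, a mean of -3.47 ± 0.26 (SD, n = 4), and -3.14, -2.84, -3.10, -3.44 and -3.03 in LFD MTX50, a mean of -3.11 ± 0.21 (SD, n = 5). LFD mouse 3 lay inside the treated range. It was -3.62, -3.70, -3.22 and -3.57 in HFD, a mean of -3.53 ± 0.21 (SD, n = 4), and -3.16, -3.49, -3.88, -3.72 and -4.08 in HFD MTX50, a mean of -3.67 ± 0.35 (SD, n = 5). The treated groups were at the 2 ends of the order, LFD MTX50 highest and HFD MTX50 lowest, with LFD and HFD between them, and neighbours in that order overlapped.

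The log2 difference of Fmo4 was 0.36 ± 0.18 (SE) for LFD MTX50 vs LFD and -0.14 ± 0.18 for HFD MTX50 vs HFD, or 0.07 within the shared slide. It was -0.06 ± 0.19 for HFD vs LFD and -0.56 ± 0.17 for HFD MTX50 vs LFD MTX50. That last value turned to 0.48 ± 0.59 (SE) under normexp. Under normexp the error of Fmo4 was over 3 times as large, and the median gene itself moved by 0.33 in that comparison, where it was -0.06 otherwise.

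Fmo5, the abundant liver form, was read on 3 probes. The brightest was at 4.53, 4.61, 4.80 and 4.79 in LFD, a mean of 4.68 ± 0.13 (SD, n = 4), and at 4.56, 4.39, 4.04, 4.54 and 5.41 in LFD MTX50, a mean of 4.59 ± 0.51 (SD, n = 5). It was at 4.77, 4.78, 4.30 and 4.69 in HFD, a mean of 4.64 ± 0.23 (SD, n = 4), and at 4.90, 4.99, 4.16, 4.26 and 4.46 in HFD MTX50, a mean of 4.55 ± 0.37 (SD, n = 5). The means of the 4 groups spanned less than the SD of any treated group, and mouse 5 of LFD MTX50 was the highest liver of all.

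The 95% interval of the Fmo5 difference ran from -0.57 to 0.38 for LFD MTX50 vs LFD, from -0.56 to 0.40 for HFD MTX50 vs HFD and from -0.55 to 0.46 for HFD vs LFD, on the log2 scale. Within the shared slide HFD MTX50 exceeded HFD by 0.44. The second probe had means of 0.91 ± 0.16, 0.50 ± 0.39, 1.05 ± 0.21 and 1.01 ± 0.53 (SD), taking the untreated and then the treated livers of the low-fat diet and likewise of the high-fat diet, and the third had 0.44 ± 0.20, 0.48 ± 0.28, 0.76 ± 0.23 and 0.35 ± 0.27 in the same order. No pair of groups separated without overlap on any Fmo5 probe. The widest differences were 0.51 ± 0.22 (SE) for HFD MTX50 vs LFD MTX50 and -0.41 ± 0.24 for LFD MTX50 vs LFD on the second probe, and -0.41 ± 0.16 for HFD MTX50 vs HFD on the third. Over all arrays, every Fmo5 probe had a negative difference for HFD MTX50 vs HFD. For LFD MTX50 vs LFD and HFD MTX50 vs LFD MTX50 the probes differed in sign.

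**Figure D2:**
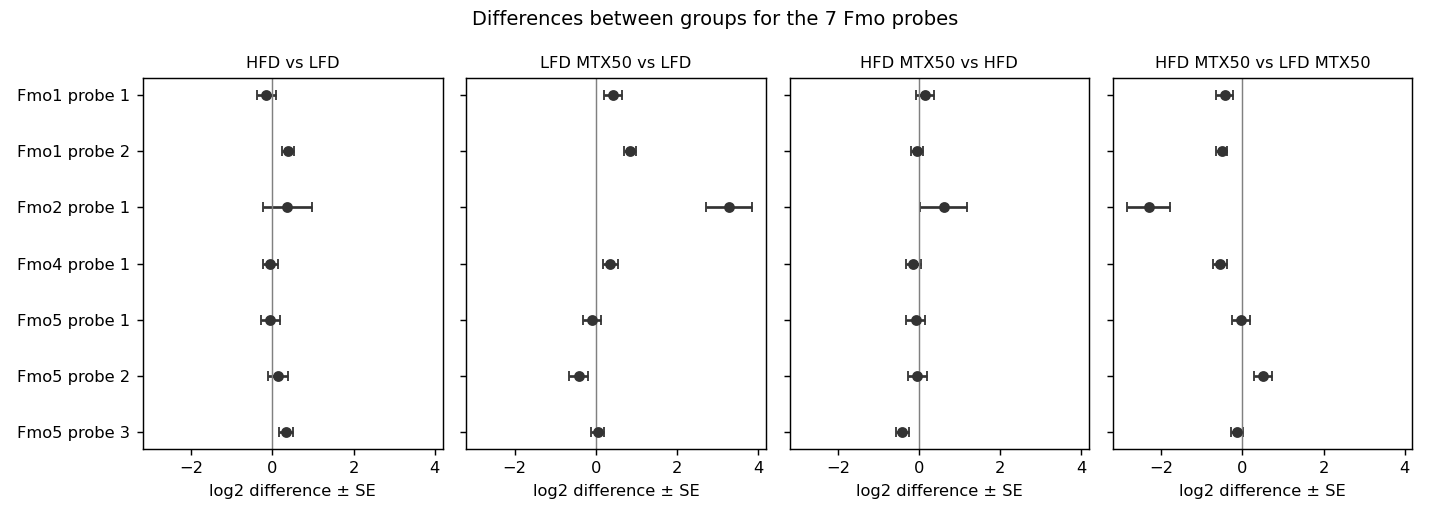
Log2 difference between groups (horizontal axis, first group minus second) for each of the 7 probes, 1 panel per comparison. Points are the estimates and bars are ± SE, all from the model over 18 arrays. Fmo2 at 3.28 in LFD MTX50 vs LFD and -2.31 in HFD MTX50 vs LFD MTX50 lies apart from the other probes, which stay within 1 of 0.

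Read on the brightest probe of each gene, 1 of the 4 members (Fmo2) passed an adjusted p below 0.05 for LFD MTX50 vs LFD, where 28.1% of the 19597 genes tested did so. For HFD MTX50 vs LFD MTX50 it was 2 (Fmo2 and Fmo4) against 16.1% of genes, and for the difference between the treatment effects 1 (Fmo2) against 26.8%. None of the 4 passed for HFD vs LFD, against 28.3%, or for HFD MTX50 vs HFD, against 11% of genes. On the same probes the groups did not overlap for 1 member in LFD MTX50 vs LFD, against 29.1% of genes, and for none in HFD vs LFD (40.3% of genes), HFD MTX50 vs HFD (11.4%) or HFD MTX50 vs LFD MTX50 (6.13%). Of the 7 probes, 2 passed for LFD MTX50 vs LFD, 3 for HFD MTX50 vs LFD MTX50 and 2 for the difference between the treatment effects, the dimmer Fmo1 probe being the added one each time, against 29.3%, 16.9% and 27.9% of all probes. None of the 7 passed for HFD vs LFD (28.6% of probes) or HFD MTX50 vs HFD (11.2%). The count for the difference between the treatment effects became 0 without HFD mouse 3 or 4, and 2 without HFD MTX50 mouse 1. That for HFD MTX50 vs LFD MTX50 became 1 without any one of LFD MTX50 mice 1, 2 and 3 and HFD MTX50 mice 3, 4 and 5, and both counts were 0 under normexp or once slide was a random block. For the difference between the treatment effects, no gene tested passed under normexp. The counts describe the chosen genes and nothing is read from them. The median member differed by 0.39 in LFD MTX50 vs LFD, where the median gene differed by 0.10, and by -0.05 in HFD vs LFD, where it differed by 0.08. The 5 comparisons reuse the groups, so these values are not independent of each other.

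The spread between mice was itself uneven. In LFD MTX50 the SD of Fmo2 was larger than that of 99.3% of genes, and in HFD MTX50 larger than that of 97.4%, while in LFD and HFD it was larger than that of 54.5% and 49.9%. The SD of Fmo1 was larger than that of 72.1% of genes in LFD MTX50 and 84.9% in HFD MTX50. The median gene had an SD of 0.14 in LFD and 0.18 in HFD, and of 0.22 and 0.27 in the treated groups of the same diets. The LFD arrays lay on 1 slide and those of each other group on 2, so these SDs hold any difference between slides.

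Fmo1 and Fmo2 ranked the treated mice alike on their brightest probes. In LFD MTX50 both ran from mouse 5 through mice 1, 3 and 2 to mouse 4, and in HFD MTX50 both ran from mouse 2 through mice 1, 4 and 3 to mouse 5. The dimmer Fmo1 probe ranked them otherwise, with mouse 3 on top and mouse 4 lowest in LFD MTX50, and with mouse 2 on top, mouse 5 in the middle and mouse 4 lowest in HFD MTX50. For Fmo4, mouse 4 was also lowest in LFD MTX50 and mouse 5 lowest in HFD MTX50, but mouse 2 of LFD MTX50 was highest. Mice 1 and 2 of HFD MTX50 lay on the slide shared with HFD, and mice 3, 4 and 5 on another. On every member probe mice 1 and 2 were the highest of that group. Mouse 5 of LFD MTX50 lay on a different slide from mice 1 to 4. Slide and mouse cannot be told apart in these orders, and the r values hold any difference between slides. Over the 18 arrays, which share the scaling and the differences between groups, Pearson's r was 0.790 between Fmo1 and Fmo2, 0.711 between Fmo1 and Fmo4 and 0.612 between Fmo2 and Fmo4. Fmo5 correlated with the other members at 0.160 to 0.377.

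Among 17524 genes with a brightest probe above background on all arrays, those with the pattern most like Fmo2 over the 18 arrays were Bnip3, a mitochondrial receptor for mitophagy (r = 0.940), Cdip1, a p53-inducible cell death gene (r = 0.937), and Zbtb16, a zinc finger repressor (r = 0.932). Bnip3 was at 3.05, 3.48, 3.00 and 2.80 in LFD and at 4.49, 4.25, 4.41, 3.64 and 5.25 in LFD MTX50. It was at 3.36, 3.38, 3.12 and 3.15 in HFD and at 3.07, 4.61, 3.56, 3.73 and 3.23 in HFD MTX50. As with Fmo2, mouse 4 was the lowest and mouse 5 the highest of LFD MTX50, and mouse 2 was the high one of HFD MTX50. Zbtb16 was at 1.81, 1.65, 1.87, 0.94 and 1.89 in LFD MTX50 against -0.43 to -0.13 in LFD, and mouse 2 of HFD MTX50 had 1.55 where the others had -0.68 to 0.15.

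**Figure D3:**
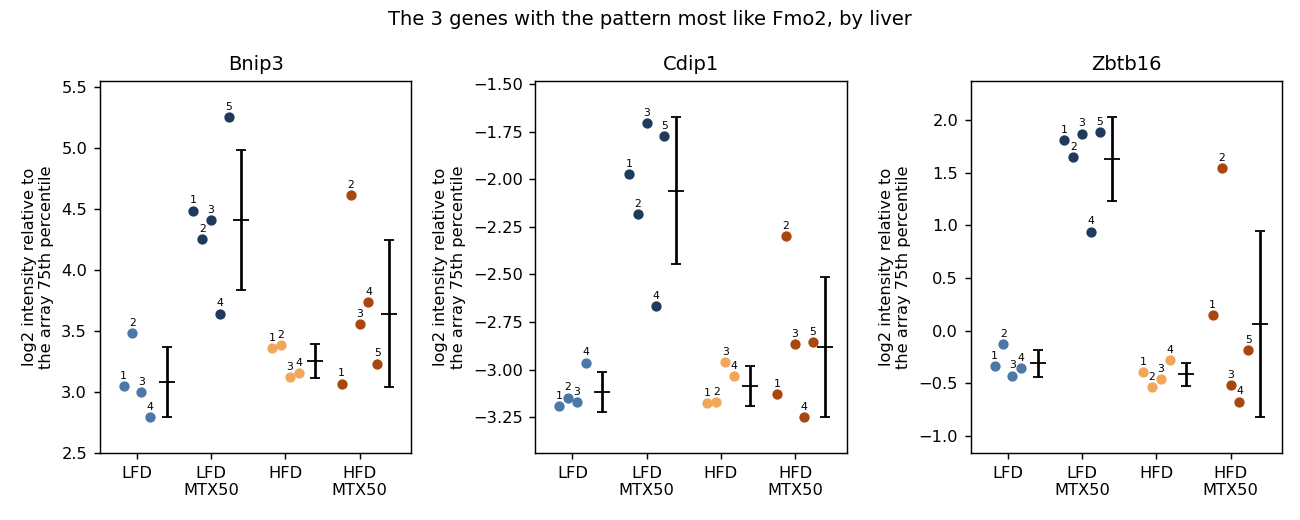
Level of the 3 genes whose pattern over the 18 arrays was most like that of Fmo2, as log2 intensity relative to the 75th percentile of the array, by group. Numbered points are mice and bars are mean ± SD. In all 3 genes LFD MTX50 lies above LFD with mouse 4 lowest, and HFD MTX50 mouse 2 is the highest of its group.

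For Fmo1 the most alike genes were Nampt, the rate-limiting enzyme of NAD salvage (r = 0.852), the MAP kinase kinase Map2k6 (r = 0.850) and the phosphatase subunit Ppp4r4 (r = 0.847). Map2k6 ranked the LFD MTX50 mice as Fmo1 did, from -2.10 in mouse 5 to -3.98 in mouse 4. For Fmo4 they were Bbs5, a part of the ciliary BBSome (r = 0.891), the actin-severing Dstn (r = 0.873) and Ankrd10 (r = 0.865). For Fmo5 the closest were Dmgdh, the mitochondrial dimethylglycine dehydrogenase (r = 0.696), Agpat3, an acyltransferase of phospholipid synthesis (r = 0.680), and Fam3c (r = 0.672), so no gene tracked Fmo5 as closely as Bnip3 tracked Fmo2. These r values contain the differences between groups and between slides and are descriptions.

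Of the other family genes described here, Fmo6, the neighbour of Fmo2, was lower in LFD MTX50 than in LFD, except under normexp. It was at -2.77, -3.02, -2.86 and -2.49 in LFD and at -3.67, -4.02, -3.71, -3.14 and -3.63 in LFD MTX50, with no overlap, and fell by 0.85 ± 0.19 (SE, adjusted p = 0.0061, limma with Benjamini-Hochberg adjustment over all probes). The call was lost once slide was a random block (adjusted p = 0.09), and the sign turned under normexp, where the log2 difference was 0.34 (adjusted p = 0.64) and the median gene moved by 0.47. In HFD and HFD MTX50 the means were -2.84 ± 0.36 (SD, n = 4) and -2.88 ± 0.26 (SD, n = 5). The treatment effects on the diets differed by 0.81 ± 0.27 (SE, limma adjusted p = 0.035). That call was lost once slide was a random block (adjusted p = 0.13), with the value table of the series (adjusted p = 0.052) and under normexp, where the difference was 0.37. Its adjusted p was 0.0085 to 0.082 as each array was left out in turn, so leaving out some single arrays ended it too.

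Fmo9 was well above background on 4 of 4 HFD arrays, on 1 of 5 HFD MTX50 arrays and on none of the LFD or LFD MTX50 arrays. It was kept among the probes tested only through its HFD arrays, the group in which it was high, so no p-value is given for it. Against the lowest signal above background, it was at least 1.35-fold higher in HFD than in LFD. The measured means were -6.13 in HFD and -7.61 in LFD, the latter from signals below background.

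The members' reaction draws on FAD and NADPH, and 9 lists of 100 related genes, 97 of them tested, were read with the same model. In LFD MTX50 vs LFD, 17 rose and 24 fell, where 17.6% of all genes tested rose and 10.5% fell. Over all genes 62.7% of the calls in this comparison were higher in LFD MTX50, and 44.8% after quantile normalization. Both slide and background handling moved this count: 16 passed under normexp, and 10 once slide was treated as a random block, namely Slc25a32, Cyb5b, Aldh1a1, Aldh1a7, Ephx2, Cux2, Socs2, Cyp4a12a, Elovl3 and Nudt7. The other calls named below for this comparison did not pass with that block. In HFD MTX50 vs HFD 3 rose and 4 fell, against 4.83% and 6.13% of all genes, and 0 passed when slide entered as a fixed block. In HFD vs LFD 5 were higher and 9 lower, against 18% and 10.4% of all genes, and 0 passed once slide was a random block or under normexp.

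Among 5 FAD supply genes, 3 rose and 1 fell in LFD MTX50 vs LFD, with a median difference of 0.81 where the median gene differed by 0.10. They were Slc25a32, which carries folate and FAD into mitochondria (0.88 ± 0.12, limma adjusted p = 7e-04), and the riboflavin transporters Slc52a3 (0.88 ± 0.28, adjusted p = 0.028) and Slc52a2 (0.81 ± 0.28, adjusted p = 0.04), while Flad1, the FAD synthase, fell by 0.20 ± 0.07 (adjusted p = 0.045). Once slide was a random block the adjusted p was 0.19 for Slc52a3, 0.17 for Slc52a2 and 0.18 for Flad1, and leaving out a single array ended the call for 3, 8 and 11 of the 18 arrays. In neither HFD vs LFD nor HFD MTX50 vs HFD did a gene of this list pass. Of 11 genes of NADPH supply, 5 fell and 0 rose in LFD MTX50 vs LFD, among them malic enzyme Me1, by 1.58 ± 0.39 (adjusted p = 0.01), and the NAD kinases Nadk, by 0.68 ± 0.14 (adjusted p = 0.0043), and Nadk2, by 0.61 ± 0.12 (adjusted p = 0.0041). In HFD vs LFD 4 of the 11 were lower, led by G6pdx, the entry to the pentose phosphate pathway, at -1.05 ± 0.22 (adjusted p = 0.0052).

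Among the electron carriers listed, Por, the reductase that P450 enzymes need and flavin monooxygenases do not, rose by 1.18 ± 0.41 in LFD MTX50 vs LFD (limma adjusted p = 0.04, 0.16 once slide was a random block and 0.2 under normexp). That call ended on leaving out any of 6 single arrays. The cytochrome b5 gene Cyb5b fell by 1.15 ± 0.21 (adjusted p = 0.0025) and the cytochrome b5 reductase gene Cyb5r3 by 0.93 ± 0.18 (adjusted p = 0.0032). Where in the cell these carriers act was not examined. Of 16 other phase I enzymes outside the P450 family 3 rose and 4 fell. Aldh1a7 fell by 1.58 ± 0.21 (adjusted p = 0.00051), the retinal dehydrogenase Aldh1a1 by 1.40 ± 0.19 (adjusted p = 0.00066) and the epoxide hydrolase Ephx2 by 1.18 ± 0.18 (adjusted p = 0.001), while the quinone reductase Nqo1 rose by 0.84 ± 0.16 (adjusted p = 0.0035). Of 11 genes of choline and methylamine handling, 1, Aldh7a1, fell in LFD MTX50 vs LFD (-0.53 ± 0.15, adjusted p = 0.019).

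Flavin monooxygenases are known to differ between the sexes in mouse liver, so genes with a sex bias and those of growth hormone signalling were read as well. In LFD MTX50 vs LFD, 8 of 13 male-biased genes fell and 0 rose, and 3 of 12 female-biased genes rose and 0 fell. Elovl3, an elongase of very long fatty acids, fell by 6.50 ± 0.61 (limma adjusted p = 4.2e-05), the fatty acid hydroxylase Cyp4a12a by 4.13 ± 0.41 (adjusted p = 6.6e-05) and the steroid dehydrogenase Hsd3b5 by 4.64 ± 1.35 (adjusted p = 0.02). Sult3a1, a sulfotransferase below background on all LFD arrays and above it on 4 of 5 LFD MTX50 arrays, was at least 6.11-fold higher. Its limma adjusted p of 0.011 is for the difference as measured, which rests on LFD signals below background. Of 10 genes of growth hormone signalling 4 rose and 2 fell. Cux2, a female-biased repressor of male genes, was above background on 1 of 4 LFD and all 5 LFD MTX50 arrays and rose by 6.15 ± 0.54 as measured (adjusted p = 3.3e-05), so the size of its change rests on LFD signals near background. The feedback inhibitor Socs2 rose by 2.68 ± 0.29 (adjusted p = 0.00014), and Stat5a fell by 0.99 ± 0.22 (adjusted p = 0.0058). In HFD MTX50 vs HFD, 1 of the 13 male-biased genes (Cyp4a12a, -1.74 ± 0.41, adjusted p = 0.019) and 0 of the 12 female-biased genes passed. Of 15 liver transcription factors and receptors, 3 rose and 1 fell in LFD MTX50 vs LFD. They included Cebpb, which rose by 1.04 ± 0.31 (adjusted p = 0.021), and Esr1, the oestrogen receptor, which rose by 0.96 ± 0.22 (adjusted p = 0.0071). The adjusted p of Cebpb was 0.14 once slide was a random block, 0.2 under normexp and 0.069 without LFD mouse 4, and that of Esr1 was 0.079 with that block and 0.18 under normexp.

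**Figure D4:**
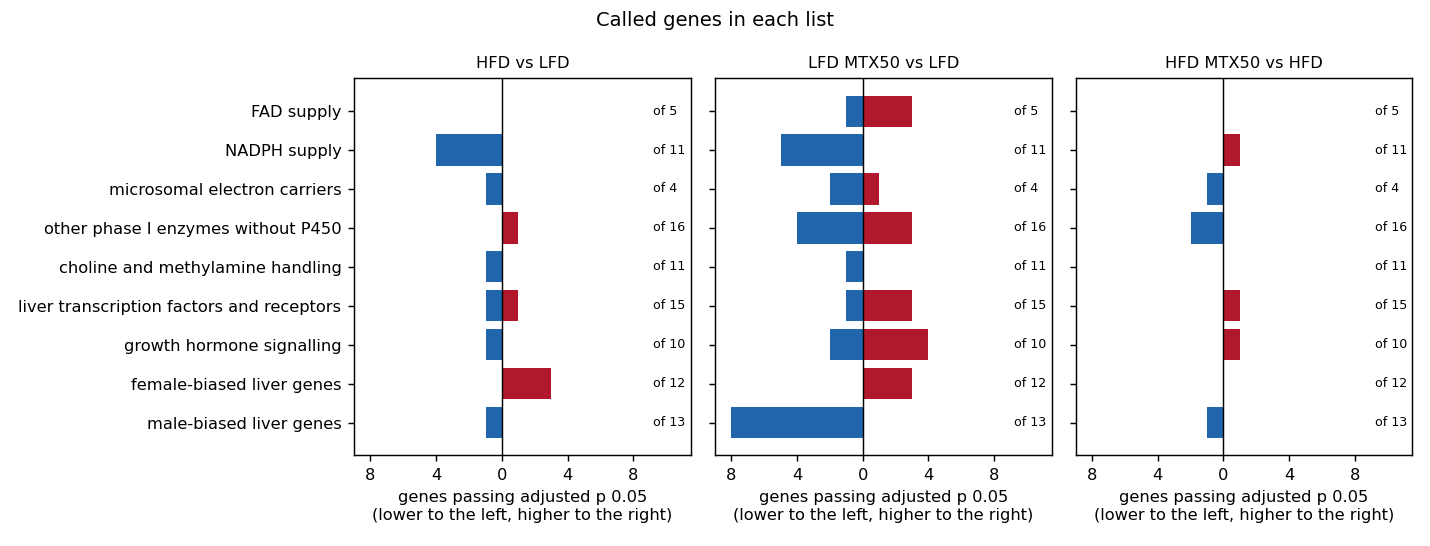
Number of genes past an adjusted p below 0.05 in each list, lower to the left and higher to the right of 0 (horizontal axis), for 3 comparisons. The number at the right of each row is how many genes of the list were tested. LFD MTX50 vs LFD has the most calls, with 8 of 13 male-biased genes lower and 3 of 5 FAD supply genes higher.

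Markers of other cell types moved in some of the livers in which Fmo2 was high. Of 6 adipocyte genes, 3 were higher in LFD MTX50 than in LFD, Lep by 1.46 (limma adjusted p = 0.0079), Adipoq by 0.68 (adjusted p = 0.02) and Plin1 by 0.66 (adjusted p = 0.0043), and the mean level of the list spanned -3.68 to -3.21 among LFD livers and -3.50 to -2.71 among those of LFD MTX50. Of the other 3, Cfd was -1.57 away in the same comparison and did not pass (adjusted p = 0.18). The list was at -2.24 to -1.66 in HFD and at -3.18 to -2.43 in HFD MTX50. In HFD, Cfd had a mean of 2.01 against -3.99 in LFD. Lep was at -0.50 against -2.79, Fabp4 at -0.04 against -1.05 and Plin1 at -5.06 against -5.70. Adipoq was at -4.50 against -4.46 and Retn at -3.15 against -2.92. Of 4 erythroid genes tested 3 fell in LFD MTX50 vs LFD, and the list ran from -3.26 to -2.77 there against -0.31 to 0.05 in LFD, and from -3.04 to 1.92 in HFD MTX50. The neutrophil list ran from -1.49 to 1.13 in LFD MTX50, -1.45 to -1.33 in LFD and -1.33 to 3.42 in HFD MTX50, and its lowest LFD MTX50 liver, mouse 5, had the highest Fmo2. In that list Ngp was above background on 4 of 5 LFD MTX50 and 0 of 4 LFD arrays. Without its LFD MTX50 arrays it would not have been kept among the probes tested, so no p-value or size is given for it. In LFD MTX50 vs LFD, S100a8 (1.67, limma adjusted p = 0.26) and S100a9 (1.42, adjusted p = 0.32) were higher and did not pass. Elane was lower by a log2 difference of -0.56 (adjusted p = 0.014). Its probe was bright, at a mean of 6.25 in LFD, and which cells that signal comes from was not tested. The stellate cell marker Des (0.56, adjusted p = 0.018) and the cholangiocyte marker Krt7 (0.63, adjusted p = 0.027) were higher, each the single call of its list. Des was dim, at a mean of -6.26 in LFD. In the same list Lrat (-0.70), Col1a1 (-0.79) and Col3a1 (-0.76) went the other way, Dcn (0.26) and Reln (0.32) went with Des, and none of these passed. Every gene of the adipocyte list was above background on all arrays. The part of these cells in the Fmo2 levels was not tested.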

How the data were processed

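The deposited scanner files hold spot intensity values on a linear scale. The authors made them with Agilent Feature Extraction 10.7.3.1, which, per the file headers, took off the background and spatial trends array by array, and they were not scaled against each other. The array was designed on mouse assembly mm9. The series' value table holds the same scans as background-subtracted, rounded intensity. The labels name Trizol, RNeasy and a low-input amplification kit, and the methods name RNeasy and another kit.

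The log2 of the deposited processed signal was taken and reduced by its 75th percentile over spots that are not controls (1203 to 2263 intensity units per array). Spots called outliers, 124 to 294 on an array, were dropped, 0 were saturated, and 35735 probes well above background on at least 4 arrays were kept. Before outlier spots were dropped, 83.9 to 90.6% of the probes of an array were well above background. Probes were named by accession through RefSeq's GRCm38.p6 table (28025 of 39429 probes). A gene is read on its brightest kept probe. Another family gene on the array is not reported here.

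limma 3.58.1 in R 4.3.3 fitted 1 model of 4 groups, with p-values adjusted by Benjamini-Hochberg across the probes kept and calls at 0.05. It was tested on simulated data. The members and lists were chosen with earlier results of these data known. Genes named are all member probes, Fmo genes with a number, at most 4 called genes per list and comparison by size of difference, 3 genes most alike each member by Pearson's r over 18 arrays, and markers where a list moves with a member. Where all arrays of a group were below background, a gene gets a lower bound against the lowest signal above background.

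Alternatives were normexp (offset 50, on median spot and background signals, since the files hold no mean signal), quantile normalization, scaling to the median, the value table, outlier spots kept, no filter or a filter on all arrays, slide as a random (correlation 0.262) or fixed block, a block for the replicate number, the 2 groups alone, an intensity trend with robust variances, an unpaired t-test, 2 calls that add a 2-fold change, the mean of a gene's probes, and each array left out in turn. The study's methods name that t-test for other measurements and state no test for the arrays. The number of arrays limits the precision.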

Additional observations from a re-analysis of the deposited data

Results flagged for a closer look

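Fmo2 in HFD MTX50 mouse 2 was at -0.25, and the nearest of the other 4 mice was at -2.26. The gap takes up most of the range of the group. It was 1 such liver among 36 groups of Fmo values examined, of which chance flags about 1 in 20.

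The remaining results are related genes whose methotrexate effect differed between the diets by limma's test of the difference itself, each given as the effect on the high-fat diet minus that on the low-fat diet, on the log2 scale. In FAD supply the difference was -1.42 for Slc52a2 (adjusted p = 0.018) and -0.79 for Slc25a32 (adjusted p = 0.0076). In NADPH supply it was 0.83 for Nadk (adjusted p = 0.0093), 0.82 for G6pdx (adjusted p = 0.044) and 0.53 for Nadk2 (adjusted p = 0.036). Among other phase I enzymes it was 0.90 for Aldh1a1 (adjusted p = 0.025), 0.88 for Ephx2 (adjusted p = 0.02) and -0.90 for Nqo1 (adjusted p = 0.013). In choline and methylamine handling it was -0.66 for Gnmt (adjusted p = 0.027) and -0.71 for Slc44a1 (adjusted p = 0.036). In growth hormone signalling it was -4.72 for Cux2 (adjusted p = 0.0048), as measured with 1 of 4 LFD and 2 of 4 HFD arrays above background, and -1.74 for Socs2 (adjusted p = 0.0092), 1.10 for Stat5a (adjusted p = 0.018) and 1.08 for Jak2 (adjusted p = 0.016). Among sex-biased genes it was 4.67 for Elovl3 (adjusted p = 0.0052) and 2.40 for Cyp4a12a (adjusted p = 0.01), both male-biased, and -2.46 for Cyp2b9 (adjusted p = 0.049) and -1.47 for A1bg (adjusted p = 0.029), both female-biased. A1bg was above background on 1 of 4 LFD and 3 of 5 HFD MTX50 arrays. Leaving out a single array ended the call of Cyp2b9 for 13 of the 18 arrays, of G6pdx for 12, of Nadk2 for 11, of Slc44a1 for 10, of A1bg for 5, of Ephx2 for 2 and of Aldh1a1 for 1. Once slide was a random block, Slc25a32, Nadk, Cux2 and Elovl3 alone passed among the genes named here, and none did under normexp, where no gene tested passed. In all 19 of the 97 list genes tested passed, where 26.8% of all genes tested did so. Igfals (-0.76, adjusted p = 0.034) was outside the naming rule, and each low-fat group lay on slides of its own.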

How the results depend on the processing

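Fmo2 in LFD MTX50 vs LFD kept its direction in every alternative and with each array left out. Under normexp the member differences moved to 0.85 (Fmo2), 0.71 (Fmo4) and -0.34 (Fmo5) in HFD vs LFD, to -1.17 (Fmo2) in HFD MTX50 vs LFD MTX50, to 0.88 (Fmo4) in HFD MTX50 vs HFD and to 1.11 (Fmo4) in LFD MTX50 vs LFD, and Fmo4 turned to 0.48 in HFD MTX50 vs LFD MTX50, as did Slc25a32, to 0.059. Quantile normalization gave 0.18 (Fmo2) and 0.24 (Fmo5) in HFD vs LFD and -0.19 (Fmo4) for the difference between treatment effects. The slide as a fixed block gave 0.74 (Fmo1) and 0.44 (Fmo5) in HFD MTX50 vs HFD, and the mean of probes 0.12 (Fmo1) and 0.14 (Fmo5) in HFD vs LFD. The cause of these shifts was not tested.

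Called genes of the lists numbered 14 (HFD vs LFD) and 7 (HFD MTX50 vs HFD), with 41 in LFD MTX50 vs LFD, 16 in HFD MTX50 vs LFD MTX50 and 19 for the difference between effects. In that order they became 0, 0, 16, 0 and 0 under normexp, under which no gene tested passed in the second and the last comparison. They became 5, 2, 20, 5 and 9 with a 2-fold change added and 5, 4, 20, 5 and 9 at an unadjusted p up to 0.015 with 2-fold, which by construction call fewer genes. The slide as a random block gave 0 for the first and 10, 1 and 4 for the last 3. As a fixed block it gave 0 for HFD MTX50 vs HFD, where no gene tested passed. Quantile normalization gave 7 and 18 for the first 2, and the filter on all arrays 12 for HFD MTX50 vs HFD. With the 2 groups alone the counts were 36, 0 and 1, and by the unpaired t-test 27, 0 and 3, for HFD vs LFD, for HFD MTX50 vs HFD and for HFD MTX50 vs LFD MTX50. In HFD MTX50 vs HFD no gene tested passed with the 2 groups alone. Leaving out 1 array gave 3 to 19 (lowest without HFD mouse 3), 0 to 11 (lowest without HFD mouse 3), 28 to 45, 11 to 20 and 13 to 28. The numbers did not pair the mice (correlations of deviations -0.31 to 0.25, 6 of 24 pairs over 0.1). The replicate block gave 3 for HFD MTX50 vs HFD and left the other 4 counts within 1.5 times. Of 31 genes named for LFD MTX50 vs LFD, 9 passed in each alternative and without each array. Scaling to the median of bright probes lowered the share of calls that were higher from 62.7% to 44.4% in that comparison. Over all probes, leaving out 1 array gave 4070 (without HFD mouse 3) to 11487 calls for HFD vs LFD, where 10225 passed, and 517 (without HFD mouse 4) to 5678 for HFD MTX50 vs HFD, where 4010 passed. HFD vs LFD also dropped to 4745 without HFD mouse 4 and 6079 and 6684 without LFD mice 2 and 4, and HFD MTX50 vs HFD to 530, 2130 and 2025 without HFD mouse 3, HFD mouse 2 and HFD MTX50 mouse 5.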
